A study of Homo sapiens with 8 samples.

Results

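APOBEC3A, APOBEC3B, APOBEC3C, APOBEC3D, APOBEC3F, APOBEC3G and APOBEC3H are the 7 human APOBEC3 genes, and all 7 had a row among the 60646 genes of the deposited count table, found by gene symbol. Their transcripts were measured in 8 samples of the MDA-MB-231 line (mesenchymal triple-negative breast cancer cells of human origin), 4 samples with the wild-type DOT1L allele and 4 samples labelled knockout with the genotype DOT1L/+. DOT1L is the methyltransferase of histone H3 lysine 79. The knockout cells were made with a guide RNA against the first DOT1L exon, and both groups were cultured alike, in DMEM with 5% serum, with no further treatment named. The labels do not give the nature of the edit, the number of clones behind the knockout samples, or whether samples of a group were separate cultures. The p-values therefore reflect sample-to-sample variation that may be technical.

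APOBEC3 proteins are zinc-dependent deaminases that turn cytosine into uracil in single-stranded DNA. They belong to innate defence against retroviruses and retroelements, where deamination during reverse transcription mutates the copied DNA. In tumour cells some of them also act on the genome, and uracil left in DNA is removed by uracil glycosylases and base excision repair. APOBEC3B is the member most often described as raised in breast cancer. The genes arose by tandem duplication, and each encodes either 1 or 2 zinc-binding deaminase domains.

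The 7 genes follow each other by start position on the plus strand of chromosome 22, between positions 38952741 and 39104067 of hg38, a stretch of 151327 bases. In GENCODE 29 the span of APOBEC3A ends at 38992778 and so covers most of APOBEC3B (38982347 to 38992804). How reads in that overlap were counted is not given in the sources used here. By the GENCODE 29 principal transcripts, APOBEC3A, APOBEC3C and APOBEC3H encode 1 zinc motif, in proteins of 199, 190 and 183 residues. APOBEC3B, APOBEC3D, APOBEC3F and APOBEC3G encode 2 zinc motifs, in proteins of 382, 386, 373 and 384 residues. The coding sequence around the last zinc motif of each gene is printed here, from the GENCODE 29 transcripts on hg38, because it shows how alike the genes are and so how far their reads can be told apart. Capitals mark the codons from the proline-cysteine pair to the last zinc-binding cysteine of the motif.
APOBEC3A: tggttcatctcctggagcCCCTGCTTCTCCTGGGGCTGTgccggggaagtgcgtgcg
APOBEC3B: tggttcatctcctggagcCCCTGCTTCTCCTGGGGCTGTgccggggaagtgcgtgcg
APOBEC3C: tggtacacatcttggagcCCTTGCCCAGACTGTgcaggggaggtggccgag
APOBEC3D: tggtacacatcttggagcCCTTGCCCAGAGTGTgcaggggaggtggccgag
APOBEC3F: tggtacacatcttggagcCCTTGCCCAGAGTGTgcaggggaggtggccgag
APOBEC3G: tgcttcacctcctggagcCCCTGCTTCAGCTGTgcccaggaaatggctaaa
APOBEC3H: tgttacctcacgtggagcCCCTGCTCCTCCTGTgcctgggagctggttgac

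These stretches lie within coding exons at chr22:38961492-38961548 (APOBEC3A), chr22:38991437-38991493 (APOBEC3B), chr22:39017859-39017909 (APOBEC3C), chr22:39031787-39031837 (APOBEC3D), chr22:39052167-39052217 (APOBEC3F), chr22:39086384-39086434 (APOBEC3G) and chr22:39101318-39101368 (APOBEC3H). The stretches of APOBEC3A and APOBEC3B did not differ at any of 57 bases, and those of APOBEC3D and APOBEC3F did not differ at any of 51. APOBEC3C differed from APOBEC3D and from APOBEC3F at 1 base. APOBEC3G and APOBEC3H differed from each other at 16 bases, and from APOBEC3C, APOBEC3D and APOBEC3F at 17 to 19 bases.

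The likeness extends over parts of the whole transcripts. Of all 75-base windows of the APOBEC3B principal transcript, 42.7% also occur in a transcript of another gene. The share was 19.9% for APOBEC3A, 17.8% for APOBEC3F and 14.7% for APOBEC3G, but 0.26% for APOBEC3C, and no window of APOBEC3H was shared. For APOBEC3D it was 84.8%, mostly with ENSG00000284554, a gene whose transcripts share most of the APOBEC3D windows and whose span also overlaps that of APOBEC3C. That gene had a count of 0 in all 8 samples. The authors' handling of reads that fit several places or several overlapping genes is not given in the sources used here. The levels of APOBEC3A, APOBEC3B, APOBEC3D, APOBEC3F and APOBEC3G are therefore less certain than those of APOBEC3C and APOBEC3H. APOBEC3B-AS1, the antisense gene that overlaps APOBEC3B, also had a count of 0 in every sample.

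Total counts per sample ran from 40103408 to 50031412, so that 1 count stood for 0.0198 to 0.0250 CPM (counts scaled to the library total, adjusted with trimmed-mean factors). DOT1L itself had 115, 101, 103 and 118 CPM in wild-type replicates 1, 2, 3 and 5 and 85.3, 78.1, 83.2 and 92.3 in the same-numbered knockout samples. Its log2 change was -0.37 (standard error 0.06, adjusted p = 2.8e-05 by edgeR's quasi-likelihood test), and the groups did not overlap. These counts cover the whole gene and do not read the edit. The 6 markers of the line summed to 6452 to 7334 CPM in wild-type and 7144 to 7537 CPM in knockout samples. Within that sum VIM (log2 change 0.40) and KRT18 (0.33) were called higher and EGFR (-0.39) and AXL (-0.30) lower. The 4 markers that this line should lack or hold at low level summed to 6.54 to 7.12 and 6.40 to 9.05 CPM, most of it EPCAM. ESR1 was among them and was called higher at a low level (log2 change 1.01), with 47 counts over the wild-type and 104 over the knockout samples. It reached the minimum level for testing in 2 wild-type and 4 knockout samples, so it was tested through its knockout level. CDH1 and PGR were too low to be tested, with 1 and 5 counts over the wild-type and 41 and 18 over the knockout samples.

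Of the 7 APOBEC3 genes, 4 were expressed highly enough to be tested (APOBEC3B, APOBEC3C, APOBEC3D and APOBEC3F). APOBEC3C and APOBEC3F rose in the knockout samples, APOBEC3D was called lower by a narrow margin, and APOBEC3B did not pass. APOBEC3A, APOBEC3G and APOBEC3H had at most 11 counts in any sample and were not tested. The change was broad in these cells: 47.6% of the 19877 tested genes passed an adjusted p of 0.05, 23.9% higher and 23.6% lower. A count of 2 higher and 1 lower among 4 tested members is thus a description of these genes, and nothing about the family as a whole is read from it. In bulk samples, more or fewer cells with a transcript and more or less RNA per cell cannot be told apart.

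**Figure D1:**
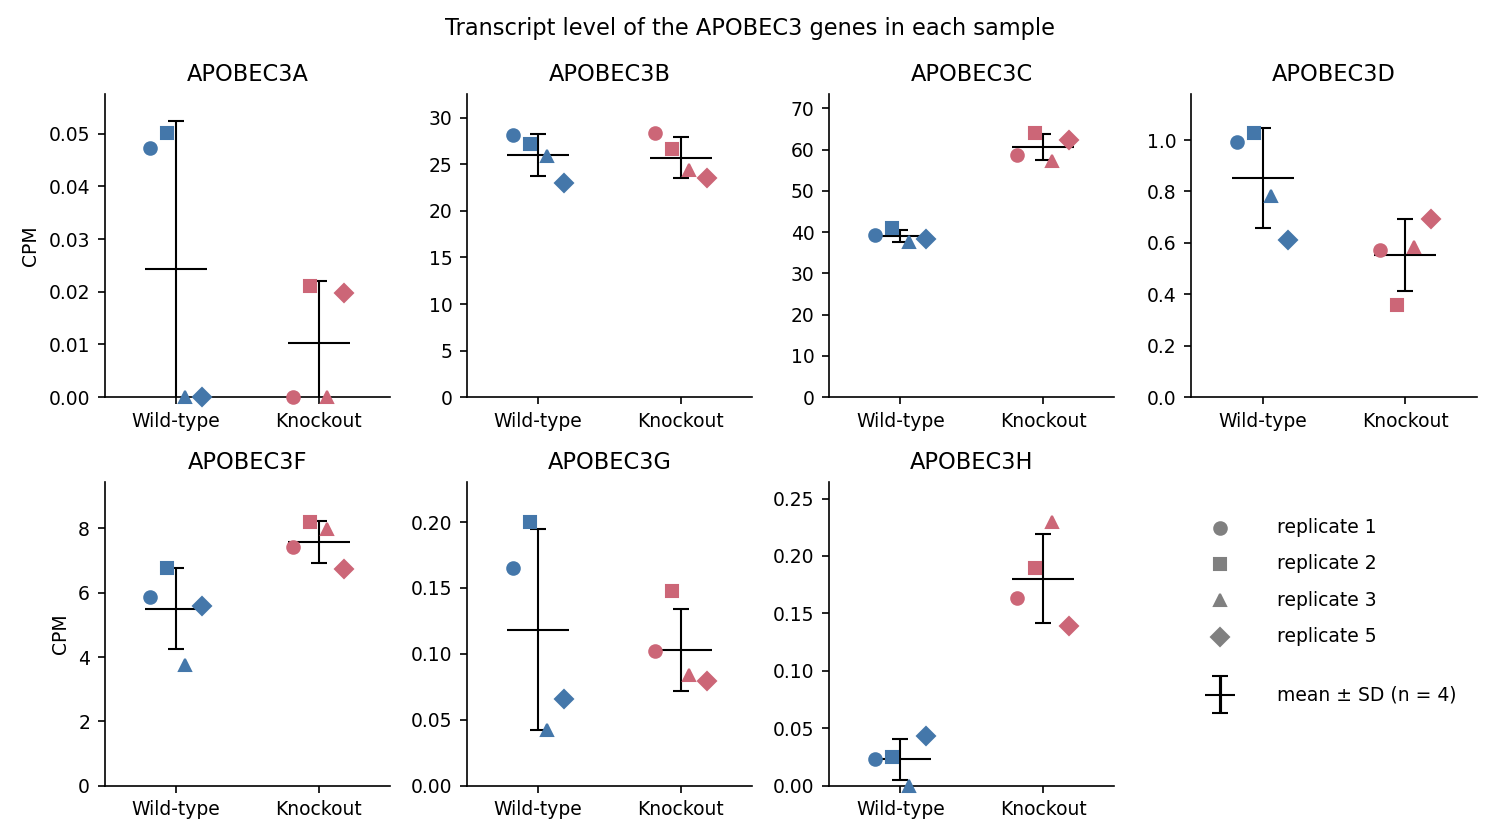
CPM of each APOBEC3 gene (vertical axes, each from 0) in the 4 wild-type and 4 knockout samples, 1 symbol per sample, with the mean and SD (n = 4); bars that would pass below 0 are clipped. The groups do not overlap for APOBEC3C and APOBEC3H, and they lie at the same level for APOBEC3B.

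APOBEC3C, a small protein with 1 deaminase domain that restricts retroelements and some retroviruses weakly, had the clearest change among the tested members. It measured 39.3, 41.1, 37.7 and 38.4 CPM in wild-type replicates 1, 2, 3 and 5. In the knockout samples of the same numbers it measured 58.7, 64.0, 57.2 and 62.3 CPM. Every knockout sample lay above every wild-type sample, by more than the whole spread within either group; across all tested genes, 43.4% had groups that did not overlap. The mean went from 39.1 ± 1.45 to 60.6 ± 3.13 CPM (SD, n = 4 each). The fold was 1.55 (95% interval 1.44 to 1.67), a log2 change of 0.63 with a standard error of 0.05 and an adjusted p of 1.54e-09 (edgeR). This gene also had few sequences in common with other genes, as given above.

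APOBEC3F has 2 deaminase domains and, like APOBEC3G, is known for entering virions of HIV-1 that lack Vif. It measured 5.87, 6.76, 3.76 and 5.58 CPM in wild-type replicates 1, 2, 3 and 5. In knockout it measured 7.41, 8.21, 7.98 and 6.74 CPM. The groups met at one point, where wild-type replicate 2 lay just above knockout replicate 5, and wild-type replicate 3 was the lowest of all. The mean rose from 5.49 ± 1.26 to 7.59 ± 0.656 CPM (SD, n = 4 each). The log2 change was 0.47 with a standard error of 0.14 and an adjusted p of 0.00921 (edgeR). Without wild-type replicate 3 the log2 change was 0.33 with an adjusted p of 0.00976.

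APOBEC3B, the nuclear member with 2 deaminase domains, showed no difference beyond the spread between samples. It measured 28.1, 27.2, 25.9 and 23.0 CPM in wild-type and 28.4, 26.6, 24.4 and 23.5 CPM in knockout replicates 1, 2, 3 and 5. The 2 ranges almost coincided. The means were 26.0 ± 2.25 and 25.7 ± 2.19 CPM (SD, n = 4 each), with a log2 change of -0.02 (95% interval -0.16 to 0.13) and an adjusted p of 0.866 (edgeR). In folds the interval ran from 0.893 to 1.09. The sign of so small a difference depended on the scaling, with 0.05 under upper-quartile scaling.

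APOBEC3D, another member with 2 deaminase domains, was counted from few reads. Its counts were 42, 41, 37 and 28 in wild-type and 28, 17, 28 and 35 in knockout replicates 1, 2, 3 and 5. In CPM these were 0.991, 1.03, 0.782 and 0.610 against 0.572, 0.358, 0.585 and 0.694. The groups overlapped, since wild-type replicate 5 lay below knockout replicate 5. The mean went from 0.853 ± 0.194 to 0.552 ± 0.141 CPM (SD, n = 4 each). The log2 change was -0.61 with a standard error of 0.25 and an adjusted p of 0.0456 (edgeR). That call did not hold under several other settings: the adjusted p was 0.0742 with upper-quartile scaling, 0.0781 with library totals alone and 0.0888 with DESeq2. It was also lost without any 1 of wild-type replicates 1, 2 and 3 (0.122, 0.129 and 0.0529) or knockout replicates 1, 2 and 3 (0.0714, 0.150 and 0.0689).

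APOBEC3H, whose common protein forms differ in stability between haplotypes, stood close to the limit of detection. It had 1, 1, 0 and 2 counts in wild-type replicates 1, 2, 3 and 5 and 8, 9, 11 and 7 counts in the same-numbered knockout samples. All 4 knockout samples lay above all wild-type samples. The summed counts were 4 and 35, a ratio of 7.88 at equal depth with a 95% interval of 2.82 to 30.5, which covers counting error only. The gene lay under the expression filter of the test. With every gene of at least 1 count kept, edgeR gave a log2 change of 2.97 with an adjusted p of 0.000521, in a fit where 14.3% of 37527 genes were called higher, and DESeq2 gave an adjusted p of 0.00556.

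APOBEC3G, the member with 2 deaminase domains known best for restricting HIV-1 in T cells, had 7, 8, 2 and 3 counts in wild-type and 5, 7, 4 and 4 in knockout replicates 1, 2, 3 and 5. The groups overlapped, with 20 counts in all on each side and a ratio of 0.901 (95% interval 0.460 to 1.76). APOBEC3A, a highly active deaminase of myeloid cells and keratinocytes, had 2, 2, 0 and 0 counts in wild-type and 0, 1, 0 and 1 in knockout samples. Its ratio, 0.451, had an interval from 0.0408 to 3.14, so no difference could be resolved at this depth. The 75-base windows of APOBEC3A that APOBEC3B also holds made up 16.4% of its transcript. APOBEC3A held at most 2 counts in samples with 1053 to 1389 counts of APOBEC3B. Since the handling of shared reads is not given, these counts do not show how reads of the shared windows were assigned.

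Leukocytes carry several APOBEC3 transcripts, and their markers were low in both groups. Of 12 leukocyte markers, NKG7 was at 0 in all 8 samples, and CD3E, CD4 and MS4A1 were at 0 in every wild-type sample and had 1 to 4 counts in all in knockout. The list summed to 1.53 to 2.43 CPM in wild-type and 3.27 to 3.57 CPM in knockout samples, most of it CD8A. Of the 2 markers tested, CD8A was called higher (log2 change 0.59, adjusted p = 0.00694 by edgeR) and CD14 did not pass (log2 change 1.03, adjusted p = 0.0748). PTPRC, the gene of CD45, had 9 counts over the wild-type and 27 over the knockout samples. These sums moved in the same direction as APOBEC3C, APOBEC3F and APOBEC3H, and their part in those differences was not tested.

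To compare members with each other, CPM were divided by the kilobases of all exons of each gene. In wild-type samples APOBEC3C (13.9 CPM per kb) and APOBEC3B (13.7 CPM per kb) shared the top of the order with overlapping ranges. APOBEC3F followed at 1.69 CPM per kb and APOBEC3D at 0.337, each below the one before in every sample. These levels are not corrected for shared reads, and APOBEC3D shares 84.8% of its 75-base windows with other genes, so its place is uncertain. APOBEC3G (0.0218), APOBEC3H (0.0184) and APOBEC3A (0.0103) closed the order, and their neighbouring ranges overlapped. In knockout samples APOBEC3C stood alone at 21.5 CPM per kb, above APOBEC3B at 13.6 and APOBEC3F at 2.34. APOBEC3D at 0.218 and APOBEC3H at 0.144 CPM per kb overlapped, and APOBEC3G (0.0190) and APOBEC3A (0.00433) came last.

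APOBEC3B and APOBEC3C together made up nearly all of the family's transcripts, as counted. Of the members' summed level per length, APOBEC3C held 46.8% ± 1.76 in wild-type and 56.9% ± 2.32 in knockout samples (SD, n = 4 each). APOBEC3B held 46.2% ± 2.02 and 35.9% ± 2.23. With the length of the principal transcript in place of all exons, a choice made after seeing the data, APOBEC3C held 41.7% and 51.8% and APOBEC3B 50.9% and 40.3%. The order of these members in wild-type cells therefore depends on the length used, and in knockout cells APOBEC3C was ahead with either. Neither length allows for shared sequence, which was 42.7% of 75-base windows for APOBEC3B and 0.26% for APOBEC3C. Whether the handling of shared reads would alter these shares or the order was not tested. The summed CPM of the 7 genes was 71.7 ± 4.40 in wild-type and 94.7 ± 3.78 in knockout samples (SD, n = 4 each), a ratio of 1.32 made up mostly by APOBEC3C.

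The ratio of one member to another within a sample does not depend on the scaling of libraries, apart from the 0.1 CPM added to both. The log2 ratio of APOBEC3C to APOBEC3B was 0.48, 0.59, 0.54 and 0.74 in wild-type and 1.05, 1.26, 1.23 and 1.40 in knockout replicates 1, 2, 3 and 5. All knockout values lay above all wild-type values. The means differed by 0.65 (0.59 ± 0.11 against 1.24 ± 0.15, SD, n = 4 each; exact two-sided permutation p = 0.0286, the smallest that 4 against 4 allows, and 0.0429 adjusted over 3 ratios). Here the members had changed unequally, whatever the scaling.

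The log2 ratio of APOBEC3F to APOBEC3B was -2.24, -1.99, -2.75 and -2.02 in wild-type and -1.92, -1.68, -1.60 and -1.79 in knockout replicates 1, 2, 3 and 5. The groups did not overlap, although the closest samples, wild-type replicate 2 and knockout replicate 1, were near each other. The means differed by 0.50 (exact two-sided permutation p = 0.0286, adjusted 0.0429, n = 4 each). With samples paired by replicate number, neither this difference nor that of APOBEC3C could pass (exact sign-flip test, adjusted p = 0.1875), since 4 pairs allow no p below 0.125. The log2 ratio of APOBEC3D to APOBEC3B averaged -4.80 ± 0.19 in wild-type and -5.33 ± 0.41 in knockout samples (SD, n = 4 each), with overlapping groups. That difference, -0.53, did not pass (exact two-sided permutation p = 0.0571, adjusted 0.0571).

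**Figure D2:**
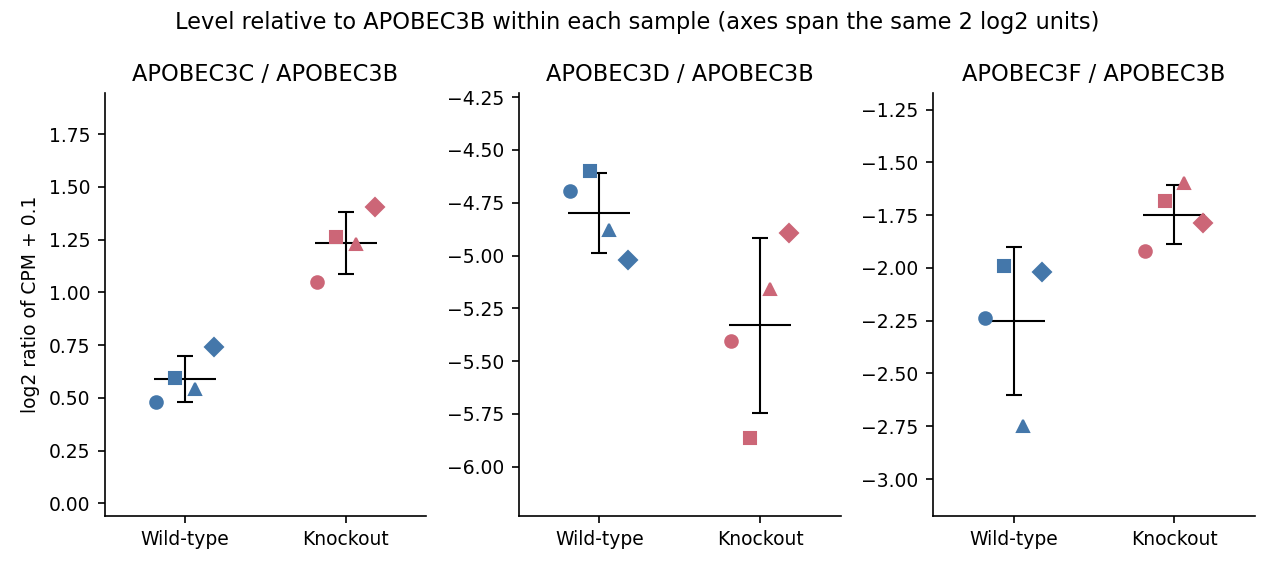
Log2 ratio of CPM + 0.1 of APOBEC3C, APOBEC3D and APOBEC3F to APOBEC3B within each sample (symbols as replicate numbers 1 circle, 2 square, 3 triangle and 5 diamond; bars are the mean and SD, n = 4), on axes of equal span. The wild-type and knockout samples are apart for APOBEC3C and APOBEC3F and overlap for APOBEC3D.

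The genes around the cluster were read from the same fit. Within 1 Mb of the cluster 39 other genes were tested, of which 4 were called higher and 14 lower, with a median log2 change of -0.08 against 0.00 over all tested genes. Of all tested genes 23.9% were called higher and 23.6% lower. On the side before APOBEC3A the median of 26 genes was -0.16, and on the side after APOBEC3H that of 12 genes was 0.02. The nearest protein-coding genes on both sides encode Polycomb chromobox proteins. CBX6, before the cluster, fell from 247 ± 10.7 to 212 ± 7.80 CPM (SD, n = 4 each; log2 change -0.22, adjusted p = 0.000471 by edgeR). CBX7, after it, measured 16.5 ± 1.77 and 18.0 ± 2.11 CPM (SD, n = 4 each) and did not pass (log2 change 0.13, adjusted p = 0.234).

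The 4 neighbours called higher, named after their values were seen, were PDGFB, KCNJ4, CACNA1I and ENSG00000225720. The last is a transcribed pseudogene that lies between APOBEC3G and APOBEC3H, at chr22:39091586-39092855. Its counts were 3, 7, 6 and 5 in wild-type and 21, 26, 19 and 29 in knockout replicates 1, 2, 3 and 5. All knockout samples lay above the wild-type samples, with a fitted log2 change of 2.03. ENSG00000225720 and CACNA1I passed the expression filter through the knockout samples alone, so that they had to be higher there to be tested. KCNJ4 also depended on the knockout samples, with 2 wild-type and 4 knockout samples at the filter's minimum. The changes of these genes are given as a description. ENSG00000225720 was low and, as the filter required, higher in knockout. The counts of APOBEC3H next to it were also low and higher in knockout, while APOBEC3G on its other side had equal summed counts in both groups. Whether these genes changed together was not tested.

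**Figure D3:**
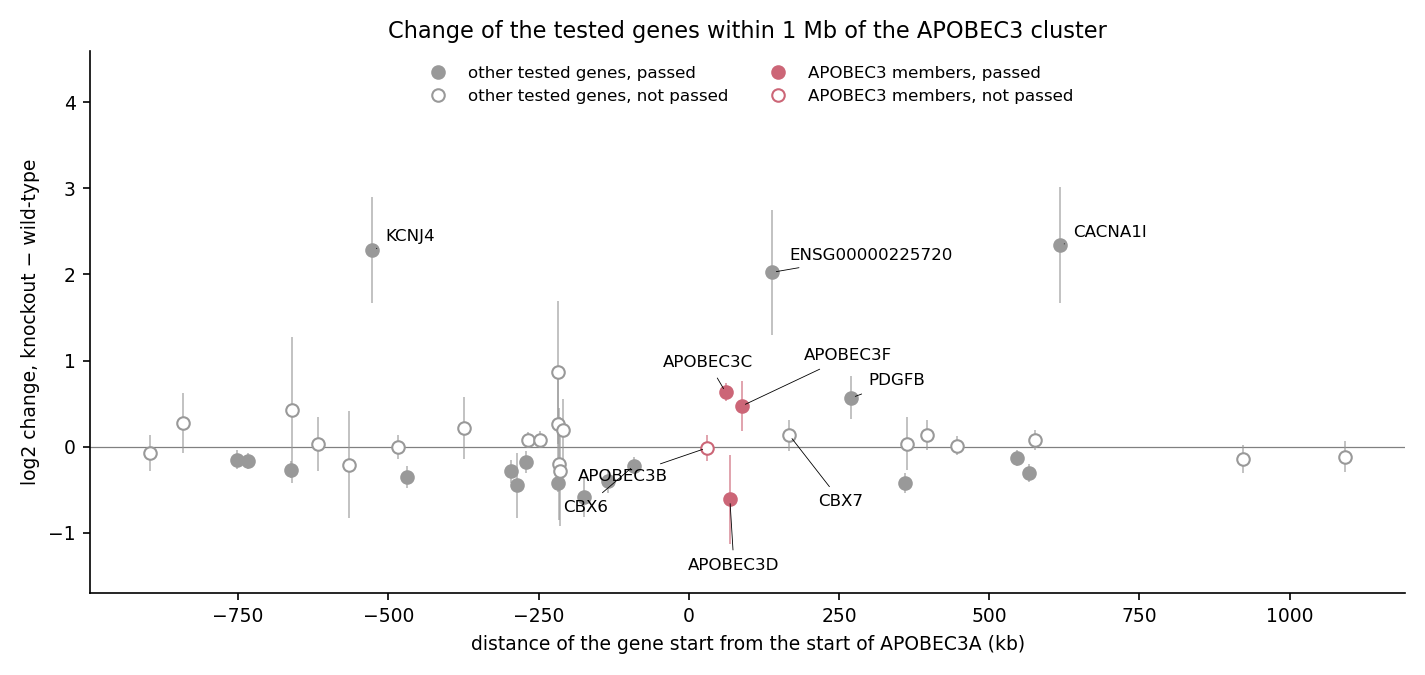
Log2 change from wild-type to knockout (vertical axis, bars are 95% intervals of the edgeR fit) of tested genes against the distance of their start from that of APOBEC3A in kb; filled points passed an adjusted p of 0.05. APOBEC3C and APOBEC3F lie above 0, APOBEC3D below and APOBEC3B at 0, among neighbours with a median of -0.08.

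The gene with the highest level per length, APOBEC3C, was compared with the protein-coding genes of at least 1 mean log2 CPM. Of 11505 genes, CTTNBP2NL (Pearson r = 0.994), EPHA7 (0.993) and SESN3 (0.993) followed its log2 CPM most closely over the 8 samples. All these points share the same samples and the same 2 groups. The changes in level differed widely in size, with log2 changes of 0.21 for CTTNBP2NL, 2.04 for EPHA7 and 3.51 for SESN3, against 0.63 for APOBEC3C.

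Outside the APOBEC3 cluster, APOBEC1, APOBEC2 and APOBEC4 had a count of 0 in all 8 samples, which allows up to 0.0595 to 0.0751 CPM per sample (3 counts). In the list of 13 relatives and other nucleoside, RNA and nucleotide deaminases, 9 were tested, of which 3 rose and 2 fell, beside 47.6% of all tested genes called, with a median log2 change of -0.07. CDA, the cytidine deaminase of pyrimidine salvage, rose from 2.76 ± 0.679 to 6.78 ± 0.668 CPM (SD, n = 4 each; log2 change 1.30, adjusted p = 4.89e-07 by edgeR). DCTD, which deaminates dCMP to dUMP for thymidylate synthesis, fell from 128 ± 2.34 to 65.6 ± 6.14 CPM (SD, n = 4 each; log2 change -0.96, adjusted p = 7.87e-12).

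The remaining deaminases that passed changed less or were low. ADAR, which edits adenosine to inosine in double-stranded RNA, rose by 0.15 on the log2 scale. ADARB2, a brain relative of ADAR without known editing activity, rose from 0.335 to 0.634 CPM, but not without wild-type replicate 2 (adjusted p = 0.0582 by edgeR) or knockout replicate 1 (0.0715). ADAT3, a subunit of the tRNA adenosine deaminase, had a log2 change of -0.38 that did not pass with library totals alone (adjusted p = 0.0511), without wild-type replicate 5 (0.0561) or without knockout replicate 5 (0.0588).

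Genes that repair or bypass uracil and abasic sites, the lesions that follow cytosine deamination in DNA, had small changes, and those that passed lay between -0.36 and -0.21 on the log2 scale. All 20 listed genes were tested, with 6 lower, none higher and a median log2 change of -0.04. Of all tested genes 23.9% were called higher and 23.6% lower, so the count of lower genes is not read as a result about the list. The absence of higher genes lay below that background, was not tested, and depended on the scaling. No gene of the list was higher at an unadjusted p under 0.05 by edgeR, and 0 were called higher by DESeq2 or by limma, whereas upper-quartile scaling called 5 higher and library totals alone 4. UNG, the main uracil glycosylase, measured 126, 121, 126 and 122 CPM in wild-type and 100.2, 97.8, 96.2 and 91.3 CPM in knockout replicates 1, 2, 3 and 5. Its groups did not overlap, with a log2 change of -0.36 (standard error 0.04, adjusted p = 7.49e-07 by edgeR). FEN1, the flap endonuclease of long-patch repair, also had a log2 change of -0.36, and PRIMPOL, which restarts DNA synthesis past lesions, one of -0.33.

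Of 24 listed regulators of APOBEC3 transcription, all tested, 6 rose and 10 fell, with a median log2 change of -0.09. The share of all tested genes was 23.9% higher and 23.6% lower, so the count of those that rose lay near the background. The 10 that fell were a larger share than the background, and this excess was not tested. The largest change was in MYBL2, the B-Myb subunit of cell cycle gene complexes, with 99.9, 97.7, 104 and 88.2 CPM in wild-type and 12.7, 10.4, 12.1 and 10.2 CPM in knockout replicates 1, 2, 3 and 5. The groups were far apart, at a log2 change of -3.10 (standard error 0.07, adjusted p = 6.73e-17 by edgeR). NFKB1, the precursor of the p50 subunit of NF-kappaB, fell from 72.0 ± 5.57 to 32.8 ± 2.62 CPM (SD, n = 4 each; log2 change -1.14). PRKCA, a protein kinase C upstream of NF-kappaB, fell from 342 ± 13.8 to 176 ± 10.6 CPM (SD, n = 4 each; log2 change -0.95). NF-kappaB, protein kinase C and B-Myb complexes are known regulators of APOBEC3B, which did not pass, as given above. Whether the changes of these regulators bear on the APOBEC3B level was not tested, and their protein activity was not measured.

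Among the regulators that rose, FOS, a subunit of AP-1, went from 5.69 ± 0.725 to 10.2 ± 0.836 CPM (SD, n = 4 each; log2 change 0.84, adjusted p = 3.62e-07 by edgeR). TEAD4, the DNA-binding partner of YAP, had a log2 change of 0.41. MAP3K14, the kinase NIK of the non-canonical NF-kappaB pathway, had one of 0.33. Of the other NF-kappaB subunit genes listed, RELA (log2 change -0.53) and RELB (-0.71) were called lower, and REL (0.12) and NFKB2 (-0.11) did not pass.

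Of 26 listed restriction factors against retroviruses and retroelements, APOBEC3 genes aside, 24 were tested, of which 5 rose and 11 fell, with a median log2 change of -0.05. Beside the background of 23.9% higher and 23.6% lower, the count of those that rose is not read as a result about the list. The 11 that fell were a larger share than the background, which was likewise not tested. MX2, a GTPase that hinders nuclear import of HIV-1, rose from 1.06 ± 0.229 to 3.08 ± 0.486 CPM (SD, n = 4 each; log2 change 1.55, adjusted p = 1.63e-07 by edgeR). OAS2, an oligoadenylate synthetase of the interferon response, had a log2 change of 1.11, and MX1, the related GTPase, one of 0.53. BST2, or tetherin, which holds budding virions at the cell surface, fell from 3.78 ± 0.363 to 0.200 ± 0.0585 CPM (SD, n = 4 each; log2 change -4.24). It reached the minimum of the expression filter in 4 wild-type samples and 1 knockout sample. BST2 was thus tested through its wild-type level, and its change is given as a description. IFITM1, a membrane protein that limits virus entry, had a log2 change of -2.62, and RNASEH2C, a subunit of ribonuclease H2, one of -0.55.

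**Figure D4:**
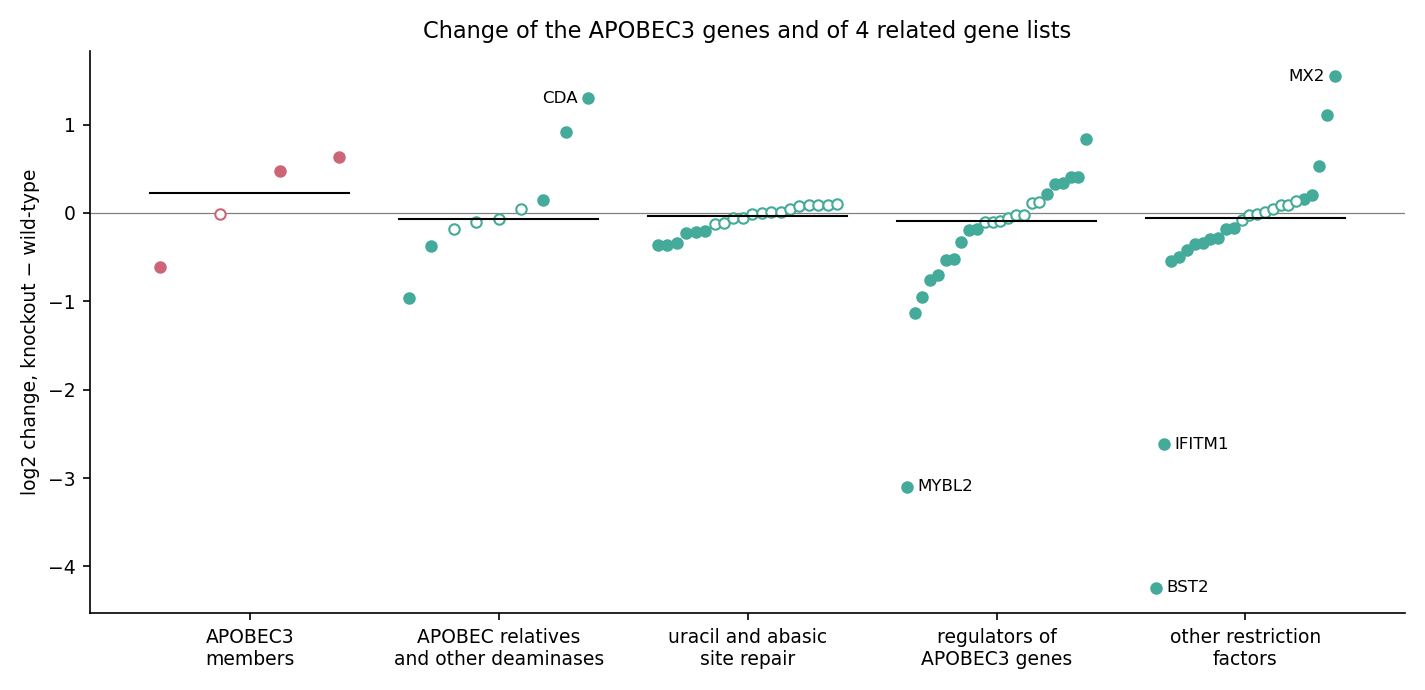
Log2 change from wild-type to knockout (vertical axis) of the tested APOBEC3 genes and of the tested genes of 4 related lists, ordered by size within each; filled points passed an adjusted p of 0.05 (edgeR) and black lines are medians. The repair genes lie close to 0, while the other lists hold genes far from 0 in both directions, BST2 and MYBL2 the lowest.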

How the data were processed

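RNA from 8 samples was sequenced as stranded, ribosomal-RNA-depleted libraries of total RNA on an Illumina NextSeq instrument, per the labels' protocols. The authors deposited whole-number counts per Ensembl gene, and log2 values from a variance-stabilizing transformation that served here for one alternative. Per the submitters' processing notes, the build was hg38 and the tools were featureCounts, DESeq2 1.23.10, Subread 1.6.2, STAR 2.6.0c and FastQC 0.11.7. Their annotation release, strand setting and treatment of shared reads are not given in the sources used here.

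Symbols were matched for 60333 of 60646 genes, and 58459 had coordinates, exon lengths and sequences in GENCODE 29 (GRCh38, the same build as hg38). Counts were compared in R 4.3.3 with edgeR 4.0.16 (filterByExpr with a minimum count of 10, TMM scaling, robust quasi-likelihood test, group as the single term), with Benjamini-Hochberg adjusted p below 0.05 over all 19877 genes tested. The steps were tested on simulated data in which few genes changed, in either direction at random. The scaling was therefore not tested under a change as broad as the one here. Ratios to APOBEC3B used members with a mean of at least 10 counts. The reads carry no molecular identifiers and may repeat a molecule, so intervals and the floor of 3 counts hold counting error alone.

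Alternatives used DESeq2 1.42.0, limma 3.58.1, other scalings and filters, and leaving out each sample. Replicates of a group were not alike within sampling noise. Both groups carry replicate numbers 1, 2, 3 and 5, and deviations of same-numbered samples from their group means correlated at 0.369, 0.148, 0.146 and 0.373 over the 13344 genes whose mean log2 CPM reached 1 (0.132, 0.0683, 0.0482 and 0.207 over all genes tested). On the first set every pair passed 0.1, and same-numbered samples were treated as pairs in the alternative fit.

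The 7 members and the lists were chosen with earlier results of these data known. From each list up to 3 called genes in each direction, by smallest adjusted p, were named. DOT1L, the genes flanking or overlapping the cluster, and the 3 genes most like the most abundant member were also named. So were the other NF-kappaB subunit genes of the regulator list, after their values were seen. A few genes of the lists are not reported here by name.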

Additional observations from a re-analysis of the deposited data

How the results depend on the processing

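Under 16 alternatives the number of genes called lay between 7506 and 10472, against 9458. APOBEC3C was called higher and APOBEC3B was not called in each of the 16, and APOBEC3F was called higher in each, with adjusted p from 5.25e-05 to 0.0319. APOBEC3D was called in 6 of its 15 tests. Scaling moved the balance of calls over all genes from 4759 higher and 4699 lower to 6021 and 3705 with upper-quartile scaling (61.9% higher) and to 5905 and 3744 with library totals alone (61.2%), against 50.3%. Of the relatives and other deaminases, 1 was lower with library totals alone, and 1 to 2 when leaving out 1 sample. Of the repair genes, 5 were higher with upper-quartile scaling, 4 with library totals alone, 2 with genes of at least 1 mean log2 CPM, and 0 to 1 when leaving out 1 sample. Against the median of the neighbours, the log2 change of APOBEC3C was 0.71.

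With the replicate block, 5286 genes were higher and 5186 lower. No call of a member, or of a list gene named by smallest adjusted p, was changed. For the paired ratios to APOBEC3B, exact sign flips over 4 pairs cannot go below p = 0.125, and the differences of 0.65 (APOBEC3C) and 0.50 (APOBEC3F) had an adjusted p of 0.1875. When leaving out 1 sample these differences ran from 0.59 to 0.71 and from 0.34 to 0.59, and the smallest p that 3 against 4 allows is 0.0571, so neither could pass. Depth limits APOBEC3A, APOBEC3G and APOBEC3H, at 0 to 11 counts per sample.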
